A study of Homo sapiens with 6 samples.

Results

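The 7 genes KAZN, TBC1D30, RAB3A, KIAA1586, GUCY1A1, ESM1 and ANKRD18A were described in PC3 cells given heme. They were selected on their fitted changes between these same libraries, because their RNA was much lower after 2 h of heme and closer to or above the untreated level after 4 h. They are 7 of 33514 gene symbols in the tables and 7 of the 16209 genes with enough reads to be tested. PC3 is a human prostate cancer cell line from a bone metastasis, and every library comes from this single line. The groups were untreated cells, cells with 50 µM heme in the medium for 2 h and cells with 50 µM heme for 4 h, with 2 libraries each. The labels name no vehicle for the untreated cells and do not say whether replicates were separate cultures, so every p-value here reflects the variation among these 6 libraries alone and could be technical. Reads assigned to genes numbered 53129375 in the shallowest and 55537611 in the deepest library. Values are CPM, read counts relative to the library's total after scaling by TMM, which corrects totals for differences in RNA composition. A gene was called where its edgeR p, adjusted for all genes tested, was under 0.05, and SE is the standard error of a fitted log2 fold change.

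The 7 genes belong to different pathways. KAZN encodes kazrin, a scaffold that binds the desmosomal protein periplakin. TBC1D30 encodes a TBC-domain protein described to switch off RAB8A, a GTPase of membrane traffic to the primary cilium. RAB3A is the GTPase that brings synaptic vesicles and secretory granules to the membrane for regulated release. KIAA1586 is annotated as a ligase of the SUMO protein tag. GUCY1A1 is the alpha subunit of soluble guanylate cyclase, whose beta subunit carries the heme group that senses nitric oxide, and the enzyme makes cGMP. ESM1 encodes endocan, a dermatan sulfate proteoglycan first described as a secreted product of endothelial cells. ANKRD18A encodes an ankyrin repeat protein with little described function.

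The cells carried epithelial RNA in every group. The summed level of the keratins KRT8, KRT18, KRT19 and KRT7 with EPCAM and CDH1 was 3398 and 3374 CPM in untreated cells, 3625 and 3146 CPM at 2 h and 3442 and 3295 CPM at 4 h. VIM, a mesenchymal gene that was also on this list, is left out of the sum. KLK3 and FOLH1, markers of luminal prostate cells, had 0 counts throughout, a limit of 0.0565 CPM on the unscaled total of the shallowest library (counting error only). ESM1 and RAB3A are known from endothelial and neural cells, so markers of these were summed as well. The 9 endothelial markers summed to 30.2 and 30.1 CPM in untreated cells, 56.2 and 48.4 CPM at 2 h and 28.5 and 26.9 CPM at 4 h, mostly PECAM1, while EMCN was at 0 in every library. The 9 neural markers summed to 20.5 and 21.4 CPM in untreated cells, 30.4 and 24.7 CPM at 2 h and 22.7 and 23.1 CPM at 4 h, mostly ENO2 and SNAP25. ENO2 averaged 14.5 CPM at 2 h against 8.87 CPM in untreated cells. SNAP25 went the other way, at 6.59 against 7.65 CPM (not called). Both sums were higher at 2 h than in the other groups. The 8 fibroblast markers summed to 26.8 and 29.3 CPM in untreated cells, 48.7 and 41.7 CPM at 2 h and 25.6 and 32.7 CPM at 4 h, mostly COL1A1. The 9 blood and red cell markers summed to between 43.2 and 53.8 CPM over all libraries, mostly CD68. CD68 averaged 44.2 CPM in untreated cells, 47.4 CPM at 2 h (not called) and 43.7 CPM at 4 h. CD14 averaged 0.601 CPM in untreated cells, 2.21 CPM at 2 h (log2 1.87, edgeR adjusted p = 0.00135) and 0.846 CPM at 4 h. HBA1, HBA2 and HBB were at 0 throughout. The part of such markers in the results was not tested. In bulk RNA, fewer cells making a transcript and less of it per cell cannot be told apart.

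In all 7 genes both 2 h libraries lay below every other library, which is what they were chosen for and was so in 25.9% of all tested genes. KAZN had 6.60 and 7.89 CPM in untreated cells, 1.85 and 2.43 CPM after 2 h, and 9.84 and 11.2 CPM after 4 h. The groups did not overlap, and the 4 h libraries stood above both untreated ones. On average KAZN reached 2.14 ± 0.410 CPM at 2 h and 7.24 ± 0.918 CPM without treatment (SD, n = 2), a fitted log2 change of -1.76 (SE 0.19). At 4 h the mean was 10.5 ± 0.957 CPM, 145% of the untreated mean (log2 0.54, SE 0.17), the highest share of the 7 genes.

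RAB3A had 10.7 and 10.1 CPM in untreated cells, 3.84 and 3.80 CPM after 2 h, and 13.6 and 14.7 CPM after 4 h. Its 2 h replicates were almost equal, and its 4 h libraries lay above both untreated ones. The change was log2 -1.44 (SE 0.15) at 2 h and log2 0.45 (SE 0.14) at 4 h, both against untreated cells. GUCY1A1 showed the same order of groups, with 4.26 and 4.97 CPM in untreated cells, 1.45 and 1.98 CPM after 2 h, and 6.45 and 5.51 CPM after 4 h. The 2 h libraries again lay lowest and the 4 h libraries above both untreated ones. Its change was log2 -1.43 (SE 0.21) at 2 h and log2 0.37 (SE 0.20) at 4 h, and the 4 h mean was 130% of the untreated mean, set beside 136% for RAB3A.

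TBC1D30 had 20.8 and 19.1 CPM in untreated cells, 5.22 and 6.51 CPM after 2 h, and 22.0 and 22.2 CPM after 4 h. Its replicates were close in every group, and its 4 h libraries lay just above both untreated ones. The change at 2 h was log2 -1.77 (SE 0.15), and the 4 h mean was 111% of the untreated mean (log2 0.15, SE 0.14). KIAA1586 had 16.4 and 13.9 CPM in untreated cells, 2.86 and 6.15 CPM after 2 h, and 17.6 and 14.5 CPM after 4 h. Here the 4 h and untreated libraries overlapped, and the 2 h replicates differed 2.15-fold. KIAA1586 averaged 4.50 ± 2.33 CPM at 2 h and 15.1 ± 1.78 CPM in untreated cells (SD, n = 2), a change of log2 -1.75 (SE 0.25), and the 4 h mean was 106% of the untreated one.

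ESM1 and ANKRD18A did not regain the untreated mean by 4 h. ESM1 had 18.2 and 16.8 CPM in untreated cells, 3.28 and 6.88 CPM after 2 h, and 11.0 and 11.2 CPM after 4 h. Both 4 h libraries lay between the 2 h and the untreated ones, at 63.5% of the untreated mean (log2 -0.66, SE 0.23), so the choice of genes for recovery or overshoot fits this one only in part. The change at 2 h was log2 -1.78 (SE 0.24). ANKRD18A, the gene with the fewest reads of the 7, had 3.64 and 2.89 CPM in untreated cells, 0.917 and 1.02 CPM after 2 h, and 3.27 and 1.94 CPM after 4 h. These CPM rest on 189 and 156 reads in untreated cells, 52 and 59 after 2 h, and 169 and 105 after 4 h. The 4 h libraries of ANKRD18A differed from each other more than the untreated ones did and overlapped them. The change was log2 -1.75 (SE 0.28) at 2 h and log2 -0.33 (SE 0.26) at 4 h, and the 4 h mean was 79.7% of the untreated mean.

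**Figure D1:**
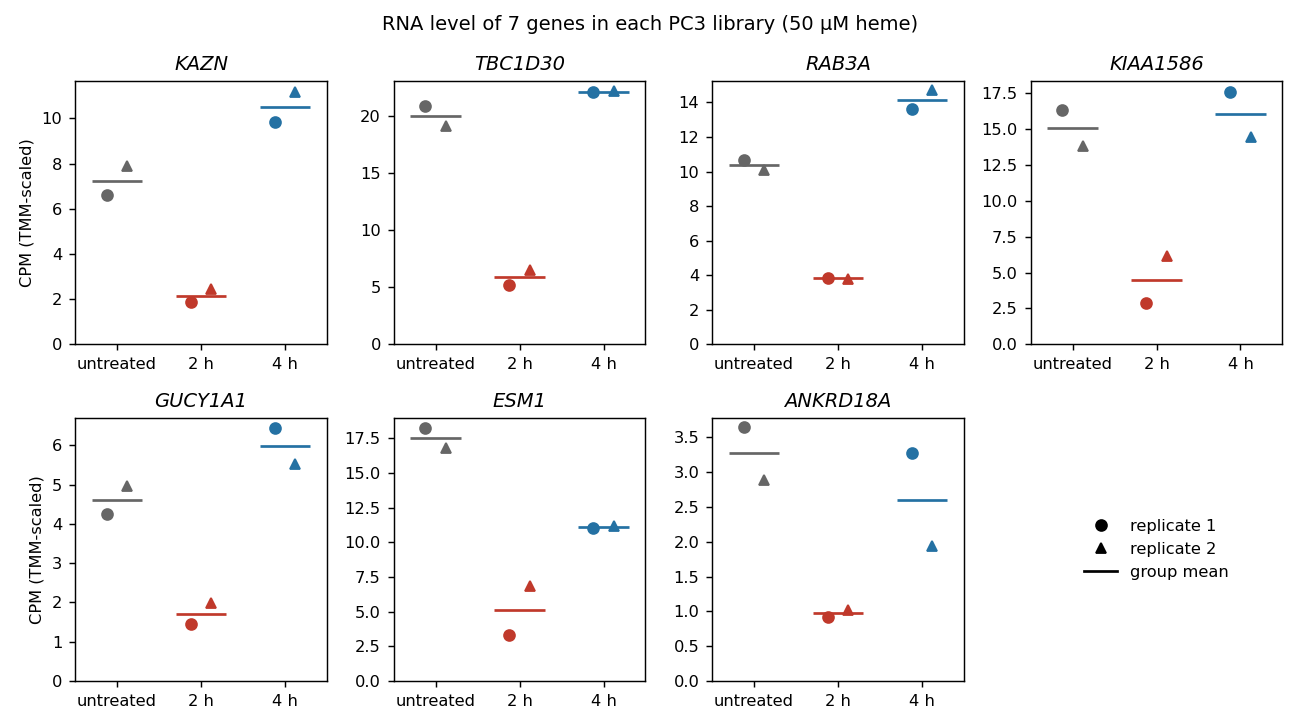
CPM of each of the 7 genes in the 6 libraries, in untreated cells and after 2 h and 4 h of 50 µM heme; circles are replicate 1, triangles replicate 2 and lines group means, on linear axes from 0. Both 2 h libraries lie lowest in every panel, and the 4 h libraries lie above the untreated ones for KAZN, TBC1D30, RAB3A and GUCY1A1 and below them for ESM1.

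The 4 h libraries thus lay above both untreated libraries in 4 genes, below both in 1 and among them in 2. Of all tested genes, 17.0% lay above both and 17.4% below both. The 7 were chosen in part for recovery or overshoot at 4 h, so nothing is read from their positions. None of the 7 was called at 4 h against untreated cells (0 of 7 by edgeR, 0 of 7 by DESeq2). At an unadjusted edgeR p under 0.05 were 3 of the 7 and 583 of the 16209 tested genes. The same choice bears on this count, so it is not a result about the 7. Over all genes, edgeR called 0.0308% at 4 h against untreated cells, with 0.0247% higher and 0.00617% lower. At 4 h against 2 h it called 28.1% of all genes, and 14.0% as higher, the direction the 7 were chosen for. Against 2 h, the 4 h level was higher by log2 2.29 (SE 0.19) for KAZN, 1.91 (SE 0.15) for TBC1D30, 1.89 (SE 0.15) for RAB3A, 1.83 (SE 0.25) for KIAA1586 and 1.80 (SE 0.21) for GUCY1A1. ANKRD18A and ESM1 came last, at log2 1.42 (SE 0.29) and log2 1.13 (SE 0.24). HMOX1, the heme-degrading enzyme and the usual marker of heme exposure, did not follow the 7 genes back. It stood at 10.4 and 11.4 CPM in untreated cells, 451 and 328 CPM after 2 h, and still 382 and 341 CPM after 4 h.

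The 7 genes were chosen for a large fall at 2 h and rank among the most reduced genes, but other genes fell more. Ranked by the fitted change at 2 h, ESM1 was the 31st most reduced of all tested genes, TBC1D30 the 34th, KAZN the 36th, ANKRD18A the 39th, KIAA1586 the 41st, RAB3A the 83rd and GUCY1A1 the 87th. A dip was counted where edgeR called a gene lower at 2 h with log2 at or below -1 and called it higher at 4 h than at 2 h. Of all tested genes 139 had it, or 0.858%, and all 7 were among them by their choice, so nothing is read from that count. The 139 genes had a median log2 of -1.22 at 2 h and -0.0044 at 4 h, both against untreated cells, while the medians of the 7 were -1.75 and 0.15. For the 139, a 4 h mean above the untreated mean was found in 68, for the 7 in 5 and for the 16209 tested genes in 7961. The 7 were chosen in part for recovery or overshoot at 4 h, so nothing is read from their medians or from this count. The rule for the 7 gives no numeric threshold, so no genes just outside it can be named.

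**Figure D2:**
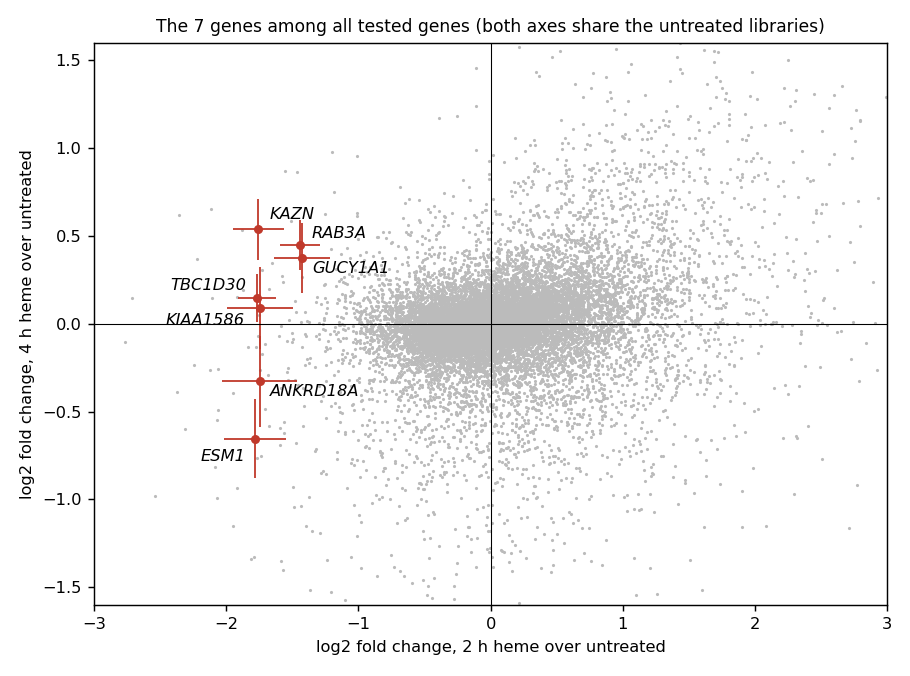
Fitted log2 fold change at 4 h against that at 2 h, both over untreated cells, for all tested genes (grey) and the 7 genes (red, bars are standard errors); 111 genes lie outside the axes, and both axes share the untreated libraries. The 7 genes lie between -1.78 and -1.43 on the horizontal axis and spread from -0.66 for ESM1 to 0.54 for KAZN on the vertical one.

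The 2 h replicates were unequal. Replicate 1 was lower than replicate 2 in 6 of the 7 genes, the exception being RAB3A. The ratio of replicate 2 to replicate 1 was 2.15 for KIAA1586, 2.10 for ESM1, 1.37 for GUCY1A1, 1.31 for KAZN, 1.25 for TBC1D30 and 1.12 for ANKRD18A. The same library was the lower one in 77.2% of the 2557 genes called lower at 2 h and in 88.5% of the 139 with a dip, against 49.9% of all tested genes. It also held more HMOX1 RNA. Leaving out 2 h replicate 1 gave log2 -1.30 for KIAA1586 and -1.35 for ESM1 at 2 h, and leaving out 2 h replicate 2 gave -2.43 and -2.44, set beside -1.75 and -1.78 with both. For 4 h against 2 h, ESM1 was at log2 0.69 without 2 h replicate 1 and 1.78 without 2 h replicate 2, and KIAA1586 at 1.39 and 2.52. The number of genes with a dip was 82 without replicate 1 and 360 without replicate 2. Without 4 h replicate 1, ANKRD18A was at log2 0.999 for 4 h against 2 h, was no longer called there and so lost the dip.

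Levels between genes were compared per kilobase of annotated exon. In untreated cells ESM1 stood highest, at 6.76 and 6.22 CPM per kilobase, followed by RAB3A at 5.88 and 5.53 and KIAA1586 at 5.27 and 4.46. The replicates of RAB3A and KIAA1586 did not overlap there, nor did those of ESM1 and RAB3A. TBC1D30 followed at 2.23 and 2.05 CPM per kilobase, GUCY1A1 at 0.739 and 0.861, ANKRD18A at 0.687 and 0.545 and KAZN at 0.477 and 0.570. In this order ANKRD18A overlapped KAZN, and GUCY1A1 lay above ANKRD18A by less than the replicates of either differed. After 4 h RAB3A, at 7.49 and 8.08 CPM per kilobase, stood above KIAA1586 at 5.67 and 4.66 and ESM1 at 4.09 and 4.15.

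The genes shared no feature of size or position. All 7 are protein coding and lie on different chromosomes in GENCODE release 29 of GRCh38. KAZN (ENSG00000189337.16, chromosome 1 from 13892792 to 15118043, plus strand) spans 1225 kb, longer than 99.9% of tested genes with a gene model. RAB3A (ENSG00000105649.9, chromosome 19 from 18196784 to 18204074, minus strand) spans 7.29 kb, and KIAA1586 (ENSG00000168116.13, chromosome 6 from 57046532 to 57055239, plus strand) 8.71 kb. TBC1D30 (ENSG00000111490.13) lies on chromosome 12 from 64780516 to 64881032, plus strand. GUCY1A1 (ENSG00000164116.16) lies on chromosome 4 from 155666711 to 155732349, plus strand. ESM1 (ENSG00000164283.12) lies on chromosome 5 from 54977864 to 55022671, minus strand. ANKRD18A (ENSG00000180071.19) lies on chromosome 9 from 38571358 to 38620660, minus strand. The median span was 49.3 kb for the 7, 32.4 kb for the 139 genes with a dip and 27.7 kb for all tested genes. GC content of the longest transcript ran from 34.8% for KIAA1586, above 1.5% of tested genes, to 59.8% for RAB3A, above 85.3%.

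Promoter sequence was looked at because heme is known to bind G-quadruplexes, folds that runs of guanine form in DNA. RefSeq windows on GRCh38.p14 were matched for 6 of the 7 genes, with several starts for KAZN and GUCY1A1, and the 250 bases before each start were searched on both strands. The G-quadruplex pattern (4 runs of at least 3 G, with 1 to 7 bases between runs) was found before 2 of the 4 KAZN starts and 1 of the 2 GUCY1A1 starts, and in 23.5% of 35116 such windows of all genes. Shown first is the KAZN window with that pattern, chr1:14923904-14924153, plus strand, then the GUCY1A1 window, chr4:155667412-155667661, plus strand. Capitals mark the pattern and, in KAZN, also an E-box (CACGTG) near the start. GC boxes within the KAZN pattern are part of the same capitals.
KAZN start 2: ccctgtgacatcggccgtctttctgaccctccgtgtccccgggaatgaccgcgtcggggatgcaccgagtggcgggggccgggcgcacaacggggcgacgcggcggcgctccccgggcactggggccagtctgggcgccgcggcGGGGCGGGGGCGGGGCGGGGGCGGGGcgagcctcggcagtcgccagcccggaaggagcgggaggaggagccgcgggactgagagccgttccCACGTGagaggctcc
GUCY1A1 start 2: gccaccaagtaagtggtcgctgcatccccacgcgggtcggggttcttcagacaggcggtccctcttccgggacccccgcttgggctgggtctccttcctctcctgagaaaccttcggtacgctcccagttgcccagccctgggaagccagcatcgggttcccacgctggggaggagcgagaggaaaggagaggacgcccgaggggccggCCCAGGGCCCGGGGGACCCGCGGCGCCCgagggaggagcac
In the GUCY1A1 window the G runs are on the opposite strand, so the printed strand shows C runs. The E-box, the motif MYC binds with MAX, was present in 1 of the 10 windows of these 6 genes and in 6.34% of all windows.

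RAB3A and ESM1, whose profiles were the least alike of the 7, are shown next. RAB3A holds 3 GC boxes (GGGCGG) and 3 copies of TGACG, the core of the cAMP response element. All are on the opposite strand and thus printed as their reverse complements, CCGCCC and CGTCA. ESM1 holds a TATA box (TATAAA) 32 bases before the start and a single TGACG. The windows are chr19:18204043-18204292 and chr5:54985594-54985843, both on the minus strand and printed in the direction of transcription, with these motifs in capitals. The ESM1 start of RefSeq lies inside the gene span of GENCODE.
RAB3A: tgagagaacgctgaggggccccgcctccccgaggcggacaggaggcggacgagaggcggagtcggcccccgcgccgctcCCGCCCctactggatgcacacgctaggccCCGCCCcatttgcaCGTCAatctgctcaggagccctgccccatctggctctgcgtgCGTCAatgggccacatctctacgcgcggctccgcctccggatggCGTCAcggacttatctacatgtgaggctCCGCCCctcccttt
ESM1: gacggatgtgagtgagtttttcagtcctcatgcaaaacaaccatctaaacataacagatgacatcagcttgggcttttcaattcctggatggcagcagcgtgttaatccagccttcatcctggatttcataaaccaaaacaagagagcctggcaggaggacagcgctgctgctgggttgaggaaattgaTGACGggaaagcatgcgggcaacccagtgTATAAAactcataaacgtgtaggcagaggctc
GC boxes were found in 5 of the 10 windows, those of 4 genes, and in 42.6% of all windows. TGACG was in 3 of the 10, also before a KAZN start, and in 21.2% of all windows. TATAAA was in 1 of the 10 and in 10.7% of all windows. CCAAT was found in 1 window of GUCY1A1, and in 32% of all windows. The whole element TGACGTCA and the antioxidant element TGANNNNGC, found in 1.65% and 35.2% of all windows, were in none of the 10. None of the motifs searched was in the ANKRD18A window. GC content of the windows ran from 47.2% to 77.6%, with a median of 58% over all windows.

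**Figure D3:**
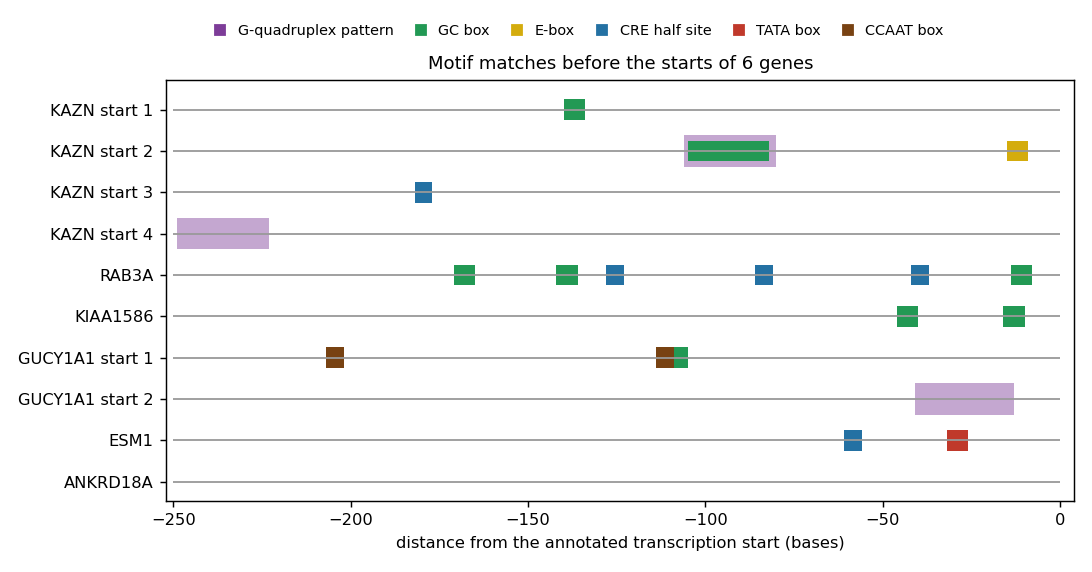
Motif matches on either strand in the 250 bases before each annotated start of 6 of the 7 genes, by distance from the start; the wide pale boxes are the G-quadruplex pattern. KAZN has it before 2 of 4 starts and GUCY1A1 before 1 of 2, and RAB3A is the gene with 3 TGACG matches.

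Neighbouring genes moved in both directions at 2 h. The 14 nearest tested genes on either side lay from 18.7 kb (IFI30, from RAB3A) to 452 kb (CNTNAP3, from ANKRD18A) away. Of these 14, edgeR called 4 lower and 2 higher at 2 h, against 15.8% lower and 15.9% higher of all tested genes. The 4 were ZNF451 beside KIAA1586 (log2 -0.59, SE 0.13, edgeR adjusted p = 0.00386), ALDH1B1 beside ANKRD18A (log2 -0.43, SE 0.10, edgeR adjusted p = 0.00515), TMEM51 beside KAZN (log2 -0.41, SE 0.13, edgeR adjusted p = 0.0254) and MAP9 beside GUCY1A1 (log2 -0.50, SE 0.16, edgeR adjusted p = 0.0255). IQCN beside RAB3A (log2 2.11, SE 0.42, 1.39 CPM at 2 h against 0.322 CPM in untreated cells, edgeR adjusted p = 0.00174) and SNX18 beside ESM1 (log2 0.52, SE 0.12, edgeR adjusted p = 0.00433) rose. The distance was 31.6 kb for ZNF451, 34.5 kb for TMEM51 and 53.0 kb for IQCN. It was 173 kb for ALDH1B1, 290 kb for MAP9 and 431 kb for SNX18. Not called were, among others, PRDM2 (log2 0.05), LEMD3 (log2 -0.23), IFI30 (log2 -0.22), BEND6 (log2 -0.11), GUCY1B1 (log2 0.47), GPX8 (log2 0.20) and CNTNAP3 (log2 0.52). The calls of TMEM51, MAP9, SNX18 and ALDH1B1 ended when a single library was left out (edgeR adjusted p up to 0.153, 0.167, 0.081 and 0.0563). These were control replicate 1 or 2 for TMEM51, control replicate 1 or 2 h replicate 1 for MAP9, and control replicate 2 for SNX18 and ALDH1B1. TMEM51 and MAP9 were also lost without TMM (edgeR adjusted p = 0.0631 and 0.055). Genes overlapping 3 of the 7 could share reads with them, since the strand setting of the counting is not given. The strand-opposed MPV17L2, overlapping RAB3A, had between 2583 and 3010 reads per library and the strand-opposed FAM201A, overlapping ANKRD18A, between 146 and 186. FAM95C, on the same strand as ANKRD18A, had 138 and 150 reads in untreated cells, 115 and 143 at 2 h and 60 and 68 at 4 h, where both libraries were lower than in the other groups. TMEM51-AS1, antisense to KAZN, had 36 and 43 reads in untreated cells, 51 and 60 at 2 h and 29 and 34 at 4 h. At 2 h these stand beside 105 and 140 reads of KAZN. KAZN-AS1, also antisense, had at most 2 reads.

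Most genes of the structures that kazrin belongs to did not dip as KAZN did, but only 0.858% of all tested genes had the dip. PPL, the periplakin that kazrin binds, rose to 50.3 ± 9.53 CPM at 2 h, against 25.3 ± 1.15 CPM in untreated cells (SD, n = 2, log2 0.99, SE 0.13, edgeR adjusted p = 1.11e-04). EVPL, its envoplakin partner in the cornified envelope, was at 35.4 ± 1.16 CPM at 2 h and 36.9 ± 1.99 CPM in untreated cells (log2 -0.06, not called). Of 18 tested desmosome, cornified envelope and spectrin genes, 7 rose and 2 fell at 2 h, with a median log2 of 0.24 beside 0.017 over all tested genes. That is 50.0% called, where 31.7% of all tested genes were called, 15.9% higher and 15.8% lower. The 7 rises were 1 without either control replicate and 3 without the filter on low counts. The genes that fell were IVL, encoding involucrin of the cornified envelope (0.306 ± 0.0586 CPM at 2 h against 1.19 ± 0.0198 CPM, log2 -1.95, edgeR adjusted p = 0.00167), and PNN, a desmosome-associated splicing factor (log2 -0.85, edgeR adjusted p = 3.72e-04). SPTAN1, a spectrin, rose by log2 0.32 (edgeR adjusted p = 0.0148), a call lost without either control replicate (edgeR adjusted p up to 0.247).

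None of the tested TBC family members had the dip of TBC1D30, but only 0.858% of all tested genes had it. Of 36 tested family members, 9 rose and 3 fell at 2 h (median log2 0.093), and 33.3% called is close to the 31.7% of all tested genes. Without control replicate 2 the counts were 4 and 1, and without control replicate 1 they were 7 and 1. EVI5L (log2 0.94, SE 0.12, edgeR adjusted p = 6.84e-05), TBC1D8 (log2 0.83, SE 0.13, edgeR adjusted p = 2.88e-04), TBC1D17 (log2 0.73, SE 0.14, edgeR adjusted p = 0.00137) and TBC1D16 (log2 0.48, SE 0.10, edgeR adjusted p = 0.00242) had the smallest p of those tested. The falls, named after their values were seen, were TBC1D12 (log2 -0.57), TBC1D24 (log2 -0.49) and EVI5 (log2 -0.37), against log2 -1.77 for TBC1D30. The call of TBC1D12 was lost without control replicate 1 (edgeR adjusted p = 0.0842) and that of TBC1D24 without control replicate 2 (edgeR adjusted p = 0.127). EVI5 was lost without either control replicate or 2 h replicate 1 (edgeR adjusted p up to 0.194). All 3 falls were called higher at 4 h than at 2 h, by log2 0.42 for TBC1D12, 0.67 for TBC1D24 and 0.54 for EVI5. RAB8A, the GTPase on which TBC1D30 acts, was at 59.0 ± 3.20 CPM at 2 h and 68.3 ± 0.634 CPM in untreated cells (log2 -0.21, not called). In a list of 14 genes of RAB8 and cilium traffic, of which 21.4% were called, RAB3IP, an activator of RAB8 (log2 0.55, edgeR adjusted p = 0.00591), and MICALL1 of recycling endosomes (log2 0.53, edgeR adjusted p = 0.00131) rose, and GDI2, which recycles RAB proteins from membranes, fell (log2 -0.30, edgeR adjusted p = 0.0262). RAB11A was not called (log2 -0.26). RAB3IP and GDI2 lost their calls without either control replicate (edgeR adjusted p up to 0.0643 and 0.297), and GDI2 also without TMM (edgeR adjusted p = 0.0697).

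Called genes of the RAB3 and RAB27 secretion machinery were mostly higher at 2 h. Of 27 tested, 10 rose and 1 fell at 2 h (median log2 0.17), so 40.7% were called, against 31.7% of all tested genes. The counts were 4 and 0 without control replicate 1, 6 and 0 without control replicate 2, 5 and 1 without 2 h replicate 1 and 12 and 4 without 2 h replicate 2. RPH3AL, an effector that binds RAB3 and RAB27, rose to 15.9 ± 0.0200 CPM at 2 h, against 8.59 ± 0.123 CPM in untreated cells (log2 0.89, SE 0.14, edgeR adjusted p = 3.60e-04). The RAB27 effectors SYTL2 (log2 0.74, edgeR adjusted p = 7.93e-04) and SYTL3 (log2 0.79, edgeR adjusted p = 0.00523) rose, as did MADD, an exchange factor for RAB3 (log2 0.52, edgeR adjusted p = 0.00483). SYTL3 lost its call without 2 h replicate 1 (edgeR adjusted p = 0.053) and MADD without control replicate 1 (edgeR adjusted p = 0.0749). Among the other RAB3 paralogs, RAB3C had 0 counts and RAB3B was not called (19.5 ± 2.09 CPM at 2 h, 18.4 ± 0.309 CPM in untreated cells). RAB3D rose to 56.6 ± 8.64 CPM at 2 h, against 41.3 ± 5.12 CPM in untreated cells (log2 0.45, edgeR adjusted p = 0.0148), a call lost without control replicate 1 or 2 h replicate 1 (edgeR adjusted p up to 0.22). The gene that fell was RAB3IL1, an exchange factor of the same GTPases (log2 -0.38, edgeR adjusted p = 0.0292). Its call was lost without either control replicate or 2 h replicate 2 (edgeR adjusted p up to 0.194), and without TMM (edgeR adjusted p = 0.0755).

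In the SUMO pathway, 8 of 25 tested genes fell and 2 rose at 2 h (median log2 -0.16), so 40.0% were called, where 15.8% of all tested genes were lower and 15.9% higher. The falls were 3 without control replicate 1, and the rises ran from 0 to 4 over the alternatives. RNF4, a ubiquitin ligase that reads SUMO chains (log2 -0.54, SE 0.10, edgeR adjusted p = 9.19e-04), the SUMO ligase PIAS1 (log2 -0.58, SE 0.11, edgeR adjusted p = 0.00175) and ZNF451 were among the falls. ZNF451, itself a SUMO ligase and the neighbour of KIAA1586 at 31.6 kb, was at 31.2 ± 6.16 CPM at 2 h and 47.0 ± 0.782 CPM in untreated cells. NSMCE2, another SUMO ligase, named after its value was seen, rose (log2 0.33, edgeR adjusted p = 0.0474). Its call was lost without any single library other than 2 h replicate 2 (edgeR adjusted p up to 0.26).

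GUCY1B1, the heme-binding partner subunit of GUCY1A1 and its neighbour on chromosome 4, did not dip. It was at 3.24 ± 0.423 CPM at 2 h and 2.34 ± 0.868 CPM in untreated cells (log2 0.47, SE 0.25, not called), while GUCY1A1 was at 1.71 ± 0.378 CPM and 4.61 ± 0.498 CPM. Of 19 tested nitric oxide and cGMP genes, 5 rose and 1 fell (median log2 0.29), and 31.6% called is close to the 31.7% of all tested genes. PDE5A, which degrades cGMP (log2 0.61, edgeR adjusted p = 0.013), DDAH2, annotated to clear an inhibitor of nitric oxide synthesis (log2 0.68, edgeR adjusted p = 0.00534), and the cGMP-dependent kinase PRKG2 (log2 0.72, edgeR adjusted p = 0.0276) rose. So did PDE2A (log2 0.55) and the natriuretic peptide receptor NPR2 (log2 0.85), both named after their values were seen, while the clearance receptor NPR3 fell (log2 -1.27, edgeR adjusted p = 0.0229). PRKG1, the main cGMP kinase of smooth muscle, was not called (log2 0.11). Each of these 6 calls was lost on leaving out some library. Control replicate 1 or 2 ended those of PDE5A (edgeR adjusted p up to 0.146), PRKG2 (up to 0.152), NPR3 (up to 0.134), NPR2 (up to 0.149) and PDE2A (up to 0.429). 2 h replicate 1 ended that of DDAH2 (edgeR adjusted p = 0.0532), NPR3, NPR2 and PDE2A, 2 h replicate 2 those of PRKG2 and NPR2, and either 4 h replicate that of PDE2A.

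Angiogenic factors and their receptors, set beside ESM1, moved in both directions. Of 21 tested, 9 rose and 3 fell at 2 h (median log2 0.29), so 57.1% were called, against 31.7% of all tested genes. Without control replicate 2 the rises were 6, and the falls were 3 under every alternative. CTGF, a secreted matrix protein, rose to 495 ± 94.6 CPM at 2 h, against 78.7 ± 1.05 CPM in untreated cells (log2 2.65, SE 0.14, edgeR adjusted p = 2.92e-08). ANGPTL4 (log2 1.56, SE 0.20, edgeR adjusted p = 7.00e-05) and the angiogenesis inhibitor THBS1 (log2 0.62, SE 0.09, edgeR adjusted p = 1.39e-04) also rose. The falls were FGF2, a growth factor for endothelial cells (log2 -0.87, SE 0.13, edgeR adjusted p = 2.14e-04), and, both named after their values were seen, APLN and NOV. The peptide gene APLN fell by log2 -1.07 (SE 0.19, edgeR adjusted p = 7.45e-04) and NOV by log2 -0.71 (edgeR adjusted p = 5.76e-04). APLN, a gene of this list with the dip, was at 6.71 ± 0.0241 CPM in untreated cells, 3.20 ± 0.182 CPM at 2 h and 7.48 ± 1.6 CPM at 4 h (SD, n = 2). Enzymes that build the chondroitin and dermatan sulfate chain of endocan had 5 of 20 members lower and 1 higher (median log2 -0.013), and 30.0% called is close to the share of all tested genes. The falls were 3 without TMM, with the replicate block, with only the groups compared, and without either control replicate or 2 h replicate 1. CHSY1, which extends the chain (log2 -0.71, SE 0.10, edgeR adjusted p = 1.39e-04), the sulfotransferase CHST3 (log2 -0.81, SE 0.11, edgeR adjusted p = 1.41e-04) and DSEL, an epimerase-like gene (log2 -0.79, SE 0.16, edgeR adjusted p = 0.00191), fell. FAM20B (log2 -0.27) and CHST11 (log2 -0.25), named after their values were seen, fell less, and UST rose (log2 0.47, edgeR adjusted p = 0.0301). UST was lost without either control replicate or 2 h replicate 1 (edgeR adjusted p up to 0.185). FAM20B was lost without either control replicate, 2 h replicate 1 or 4 h replicate 1 (edgeR adjusted p up to 0.305), and CHST11 without any single control or 2 h library (edgeR adjusted p up to 0.273).

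Few relatives of ANKRD18A could be tested. Of the 17 relatives with counts listed, 8 were tested, and 3 fell at 2 h (median log2 -0.58), so 37.5% were called, against 31.7% of all tested genes and 15.8% as lower. ANKRD18B, a close paralog, was at 4.77 ± 0.865 CPM at 2 h and 8.66 ± 0.437 CPM in untreated cells (log2 -0.86, SE 0.17, edgeR adjusted p = 0.00186). ANKRD30B had 1 and 1 reads at 2 h, against 15 and 32 in untreated cells (edgeR adjusted p = 9.24e-04), and ANKRD36B fell by 1.14 on the log2 scale (edgeR adjusted p = 0.0271). ANKRD36 was not called (log2 -0.63). The call of ANKRD36B was lost without control replicate 1 or 2 h replicate 1 (edgeR adjusted p up to 0.181). Where such relatives are alike in sequence, reads may be split between them or dropped by the counting. How alike they are was not measured, so the values of ANKRD18A and its relatives are uncertain.

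**Figure D4:**
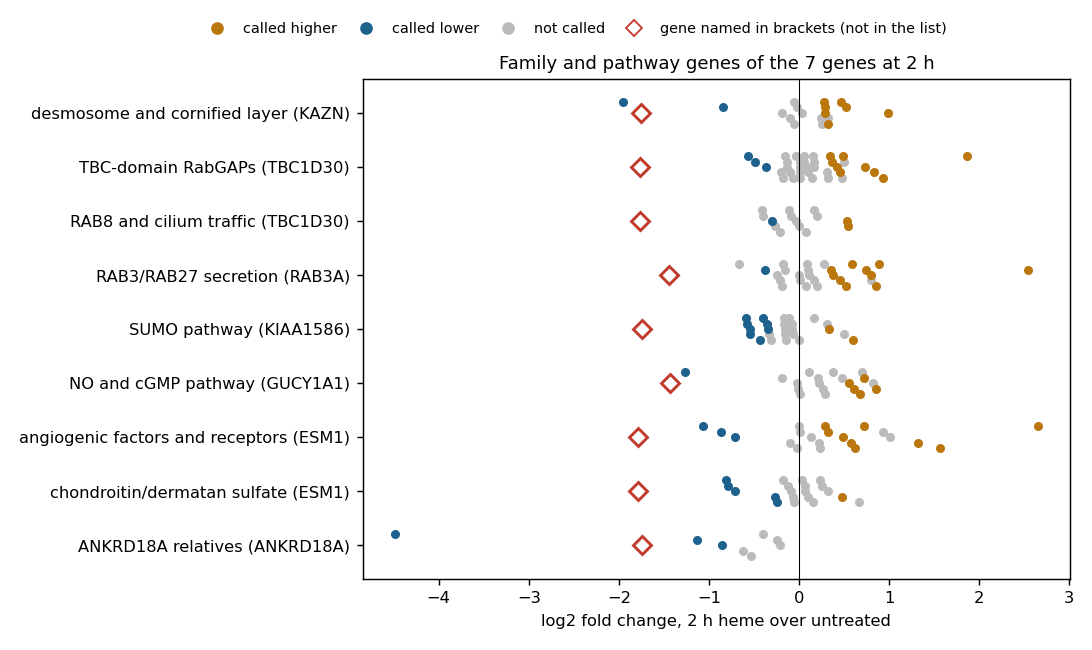
Fitted log2 fold change at 2 h over untreated cells for the tested genes of 9 family and pathway lists (dots, coloured by edgeR call) and for the gene of the 7 that each list belongs to (open diamonds). In 8 of the lists at least 1 gene rose, and every diamond lies between -1.78 and -1.43.

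Over the 9 lists together, with each gene counted once, 45 of 188 tested genes rose and 27 fell at 2 h, so 38.3% were called, against 31.7% of all tested genes. Of the 188, 3 had the dip, namely IVL, APLN and ANKRD30B, beside 139 of the 16209 tested genes (0.858%). Without control replicate 1 the list genes called were 22 higher and 14 lower, and without control replicate 2 they were 20 and 18.

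The genes whose profile was most like that of each of the 7 were found by the distance between log2 CPM profiles over the 6 libraries, each relative to its untreated mean, among 11929 genes with a mean of at least 2 CPM. TBC1D30 had the closest match, CCNF, a cyclin-like subunit of a ubiquitin ligase (distance 0.259), followed by FBXO5, an inhibitor of the anaphase-promoting complex (0.434), and HJURP, the centromere histone chaperone (0.442). CCNF averaged 70.0 CPM in untreated cells, 20.8 CPM at 2 h and 72.4 CPM at 4 h. GUCY1A1 was closest to BEND3 (0.335), ZIC2 (0.413) and ZNF165 (0.454), and RAB3A to BEND3 (0.422), GUCY1A1 (0.474) and ADAMTS1 (0.481). KIAA1586 was closest to the zinc finger genes ZNF165 (0.496) and ZNF215 (0.525), with FBXO5 between them (0.506). KAZN was closest to GUCY1A1 (0.592), RAB3A (0.614) and TBC1D30 (0.630). ESM1 and ANKRD18A had no near match, the closest being ZNF365 at 0.818 for ESM1 and FBXO5 at 0.735 for ANKRD18A. ESM1 was next nearest to HJURP (0.844) and FBXO5 (0.854), and ANKRD18A to ZNF365 (0.745) and ZNF695 (0.764). Among the 7, RAB3A and GUCY1A1 were the most alike (0.474) and RAB3A and ESM1 the least (1.85). These distances are a description of profiles chosen to dip.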

How the data were processed

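RNA of 6 PC3 libraries was measured by RNA sequencing, with 2 libraries in each of 3 groups. What the authors deposited for each library is a table of raw counts by gene symbol in the layout of HTSeq. The submitters' processing notes name the build hg38 and the tools STAR, Trimmomatic, deepTools and SAMtools. For their roles, versions, the annotation and the strand setting, nothing is stated in those notes. The 5 summary lines stayed out. Reads outside genes made up 5.48% to 6.88% and ambiguous reads 4.23% to 4.48% of a library. Replicate pairs were checked for duplicates, and their chi-square per gene ran from 9.11 to 34.2, above sampling noise.

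Genes were tested with edgeR 4.0.16 in R 4.3.3, using TMM, filterByExpr (minimum count 10) and the two-sided quasi-likelihood test. A single fit held every library and left 3 residual degrees of freedom. Benjamini-Hochberg adjustment covered 16209 genes, with a threshold of 0.05. SE is the fold change divided by the root of its F. The members and lists were chosen with earlier results of these data known, so the 7 genes get no p as a result. Named were the 7, per list the 4 genes with the smallest p and direct partners or paralogs, the nearest tested neighbours and 3 like profiles per gene. A few more were named after their values were seen, as said beside them, and a few results that the rule would name are not reported here. Gene models are those of GENCODE 29 (33164 of 33514 symbols matched 1 gene), and promoters those of RefSeq. Tried as alternatives were DESeq2 1.42.0, edgeR with the size factors of DESeq2, no TMM, no filter, a replicate block, only the compared groups and each library left out.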

Additional observations from a re-analysis of the deposited data

Results flagged for a closer look

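For 41 of the 63 named genes outside the 7, the change at 4 h differed from the change at 2 h, both relative to untreated cells, by the direct edgeR contrast of 4 h against 2 h (adjusted p between 7.17e-08 and 0.0461). Of all tested genes, 28.1% were called in that contrast. Of the 63, 50 were called at 2 h against untreated cells, many of them named for a small p there, and the 2 contrasts share the 2 h libraries, so the count is not independent of that choice. The 7 genes and the genes with like profiles were chosen by this difference and are not counted. Of the 41, 22 were lower at 4 h than at 2 h and 19 higher.

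Lower at 4 h than at 2 h, in log2, were CTGF (-2.69), ANGPTL4 (-1.96), SYTL3 (-1.22), IQCN (-1.18), RPH3AL (-0.98), SYTL2 (-0.95), PDE5A (-0.90), EVI5L (-0.90), PPL (-0.80), TBC1D8 (-0.74), THBS1 (-0.71), TBC1D17 (-0.67), PDE2A (-0.67) and DDAH2 (-0.59). Smaller differences were those of MICALL1 (-0.49), RAB3IP (-0.46), SNX18 (-0.45), NSMCE2 (-0.41), TBC1D16 (-0.39), MADD (-0.35), SPTAN1 (-0.34) and GPX8 (-0.33).

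Higher at 4 h than at 2 h, in log2, were TBC1D12 (0.42), ALDH1B1 (0.49), EVI5 (0.54), RNF4 (0.54), TMEM51 (0.56), ZNF451 (0.56), PIAS1 (0.58), FGF2 (0.65), TBC1D24 (0.67) and CHSY1 (0.73). Larger differences were those of ANKRD18B (0.78), CHST3 (0.78), DSEL (0.78), PNN (0.82), RAB3IL1 (0.82), NOV (0.89), APLN (1.22) and IVL (1.56). ANKRD30B was at 3.70, a fitted value that rests on 1 read in each 2 h library and depends on the prior count.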

How the results depend on the processing

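No called log2 value of the 7 genes turned sign under the 13 alternatives, and 19 of their 273 alternative values, called or not, moved by more than the spread between replicates. All 7 genes kept the dip under every alternative but the one without 4 h replicate 1, where ANKRD18A lost it.

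The genes called at 4 h against control, 5 as reported, were 15 with DESeq2, 10 without the filter and 13 with only the groups compared, and between 4 and 16 with a library left out. With a library left out, the genes called at 2 h against control ran from 2321 to 6254 (5136 with all), those at 4 h against 2 h from 2199 to 5819 (4558 with all) and the genes with the dip from 82 to 360. Related list genes called ran from 20 to 52 higher and from 14 to 38 lower. The cause was not tested. At 2 h 2579 genes were called higher and 2557 lower, and without TMM 3042 and 1815.

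With the replicate block 4809 genes were called at 2 h, 4205 at 4 h against 2 h and 6 at 4 h against control. The labels do not say what the numbers share, and replicate deviations correlated at -0.20, 0.16 and -0.099 between groups. With the 2 h numbers crossed, chosen after seeing the data, the counts were 6277, 5789 and 5. The block ended the calls of EVI5, NSMCE2, FAM20B and CHST11. DESeq2 ended that of NPR2 (adjusted p = 0.0519), and testing only the groups compared that of PDE2A (edgeR adjusted p = 0.0652).

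Of 50 named calls at 2 h, 25 were lost on leaving out some library, 20 of them without control replicate 1, and 10 under another setting. With a floor of 1 CPM, 18 of 21 like profiles were shared. Having 2 libraries in each group limits every comparison.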
